A study of Mus musculus with 3 samples.

Results

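Collagen genes were followed through every cell of a single-cell RNA study of the mouse heart interstitium. The members are all genes whose symbol reads Col, digits, a, digits. They number 39 of the 17126 genes listed in at least 1 of the 3 deposited libraries, and 29 of them are listed in all 3. With at least 100 transcripts over the 3 libraries, 27 members are described by value. The other 12 had 2 to 63 transcripts each: Col7a1, Col8a2, Col9a2, Col9a3, Col10a1, Col11a1, Col11a2, Col17a1, Col20a1, Col24a1, Col25a1 and Col28a1.

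Mouse hearts were minced and digested with collagenase II, cardiomyocytes were spun out at low speed, and the remaining cells were sorted on Lin28 and on cKit (the receptor encoded by Kit), both stained at the surface per the labels. Cells with neither protein (Lin28-/cKit-), with Lin28 alone (Lin28+/cKit-) and with both (Lin28+/cKit+) each gave 1 droplet library of polyA RNA (10x Chromium 3' v3.1). The labels give no strain, genotype, age, sex or number of animals. A group is a single library, so no test between groups was possible. All intervals are 95% intervals of counting error alone and say nothing of the spread between animals.

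A collagen molecule is built of alpha chains that wind around each other in a triple helix, and each chain has its own gene. Fibril-forming collagens give the interstitium its tensile strength, type IV collagens make the sheet of the basement membrane under endothelium and around muscle cells, type VI makes beaded filaments beside that sheet, and the multiplexins (types XV and XVIII) sit in the zone between sheet and fibrils. The fibroblast is the classic source of interstitial collagen in the heart, whereas endothelial cells are known to make type IV collagen.

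The libraries held 3976, 681 and 1176 cells, in the order Lin28-/cKit-, Lin28+/cKit- and Lin28+/cKit+, with 34031955, 7401174 and 10400648 UMIs. A UMI (unique molecular identifier) counts 1 captured transcript whatever its length, and CPM gives a gene's UMIs in 1000000 UMIs of the same cells. Cells were clustered without Kit and without any collagen, and clusters were named from marker lists that hold no collagen, so no member took part in drawing the classes. Fibroblast-like cells made up 69.6%, 4.99% and 1.02% of the cells (2767, 34 and 12), endothelial-like cells 23.3%, 35.8% and 36.5% (925, 244 and 429), and macrophage-like cells 0.629%, 49.0% and 56.0% (25, 334 and 659). Summed endothelial markers stood at 8380 to 8532 CPM in endothelial-like cells of the 3 libraries against 134 to 167 CPM in fibroblast-like cells. The Lin28-/cKit- library shared 8 cell barcodes with the Lin28+/cKit+ library, and the 2 Lin28+ libraries shared 1. No cell was removed as a doublet.

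Fibroblast-like cells carried most of the collagen transcripts, and the fibril-forming chains led. In the Lin28-/cKit- library, 0.644% of all UMIs were collagen, and 93.4% of those lay in fibroblast-like cells. Summed collagens reached 7288 CPM (7256 to 7319) in fibroblast-like cells and 2021 CPM in endothelial-like cells, a ratio of 3.61. By family, fibroblast-like cells held 3786 CPM of fibril-forming, 1237 CPM of beaded filament, 1063 CPM of basement membrane and 722.5 CPM of multiplexin chains. Endothelial-like cells ordered the families differently, with 1525 CPM of basement membrane chains ahead of 225 CPM of fibril-forming and 97.1 CPM of beaded filament chains.

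Type III and type I chains were the most abundant members in fibroblast-like cells. Col3a1, the single chain of type III collagen, stood at 1349 CPM there against 89.5 CPM in endothelial-like cells of the same library. Col1a2 stood at 1170 CPM against 66.4 CPM, and its partner Col1a1 at 697 CPM against 29.8 CPM. Type I collagen needs 2 chains from Col1a1 for each chain from Col1a2, yet the UMIs ran the other way, with 1.68 Col1a2 UMIs (1.65 to 1.71) for each Col1a1 UMI. Both genes were detected in 94.4% of the 2767 cells. A 3' UMI needs no correction for gene length, but how well each gene is captured was not measured.

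The minor fibrillar chains, which set the width of type I fibrils, were lower but equally fibroblast-weighted. Col5a1 measured 227 CPM in fibroblast-like and 12.9 CPM in endothelial-like cells, Col5a2 182 and 17.7 CPM, and Col5a3 117 and 5.97 CPM. Col27a1, a long fibrillar chain of cartilage, measured 41.0 and 2.63 CPM. The beaded filament chains followed the same order, with Col6a1 at 578 against 48.9 CPM, Col6a2 at 412 against 29.1 CPM, Col6a3 at 167 against 14.6 CPM and Col6a6 at 76.8 against 4.30 CPM. Among chains that decorate fibrils or the basement membrane zone, Col15a1 was the most abundant, at 709 against 74.2 CPM. Col8a1, a short-chain network collagen of vessels, measured 284 against 36.8 CPM, Col14a1, which binds fibril surfaces, 136 against 15.3 CPM, and Col16a1 40.8 against 4.06 CPM. The ratios of these minor, beaded and fibril-associated chains ran from 7.72 for Col8a1 to 19.7 for Col5a3.

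Type IV chains split between the classes. A member was called higher or lower when the ratio of CPM was at least 1.5 and its interval excluded 1, and it was measured when the pair of cell groups held at least 20 of its UMIs. Of 31 measured members, 23 were called higher in fibroblast-like cells, 3 lower and 5 neither, beside 21.1% of all genes called higher and 24.3% called lower. The median log2 ratio was 3.16 over the collagens and -0.07 over all genes measured. Col4a2 was called lower, at 257 CPM in fibroblast-like and 524 CPM in endothelial-like cells, 2.04-fold (1.95 to 2.14) higher in the endothelium. Its partner Col4a1 leaned the same way, at 634 and 929 CPM, but its 1.47-fold difference (1.42 to 1.52) stayed under the fold required. Taken as a mean over cells, the Col4a1 ratio was 1.56 and passed it. Col4a5 measured 65.2 CPM against 4.77 CPM and Col4a6 14.5 CPM against 0.239 CPM, so this chain pair was on the fibroblast side. Col4a4 (81.0 and 59.2 CPM) and Col4a3 (12.0 and 7.64 CPM) were closer between the classes, and the endothelial part of both came from 1 cluster described further on.

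The remaining members called lower in fibroblast-like cells were transmembrane collagens, which stay anchored in the cell membrane. Col13a1, known from neuromuscular junctions and focal adhesions, measured 0.392 CPM in fibroblast-like and 10.0 CPM in endothelial-like cells, 25.6-fold (12.9 to 55.1) higher in the endothelium. Col23a1 measured 1.10 against 7.88 CPM, 7.13-fold (4.24 to 12.0) higher. Both were rare transcripts, 42 and 33 UMIs in 925 endothelial-like cells. Col18a1 measured 13.4 against 19.3 CPM and was called neither way. Rare chains on the fibroblast side were Col12a1 at 5.84 against 0.477 CPM, Col26a1 at 5.09 against 0.955 CPM and the type VI chain Col6a5 at 3.06 against 0.239 CPM. By level alone, with no fold or interval required, 26 of the 39 members were higher in fibroblast-like and 5 in endothelial-like cells of this library. These were its only named classes with at least 50 cells, and 8 members had too few UMIs to place. No share over all genes is given for these counts, and levels in smaller groups of cells are given at the end.

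**Figure D1:**
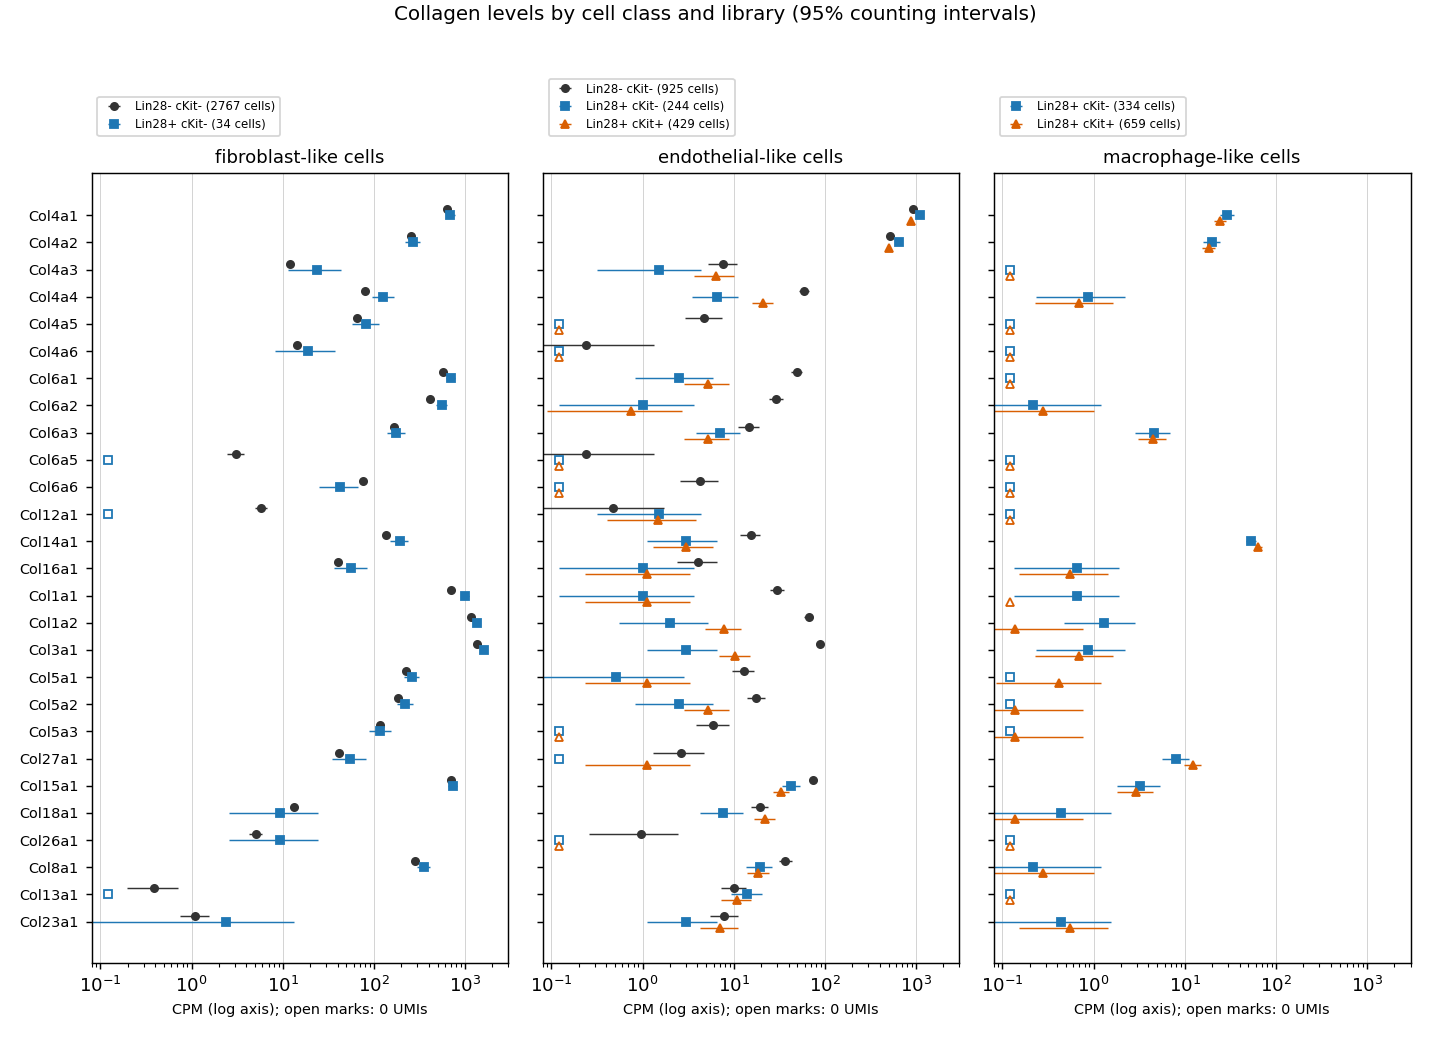
CPM on a log axis for the 27 described collagens (rows) in fibroblast-like, endothelial-like and macrophage-like cells, 1 mark per library with its 95% counting interval, open marks where no UMI was counted. Col4a1 and Col4a2 are near the top in both fibroblast-like and endothelial-like cells, the fibrillar chains are high in fibroblast-like cells only among the 3 panels, and Col14a1 is the highest collagen of macrophage-like cells.

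The genes that fold, cross-link, bind and degrade collagen were read on lists of their own in the same comparison. The share of all genes to set beside each list was again 21.1% called higher and 24.3% called lower. Of 20 enzymes and chaperones that modify the chains, 11 were higher in fibroblast-like cells and 1 lower (median log2 ratio 0.81), led by the collagen chaperone Serpinh1 at 779 CPM and the prolyl isomerase Ppib at 663 CPM. Endothelial-like cells still held 343 CPM of Serpinh1 and 383 CPM of Ppib. Of 17 measured genes for processing and cross-linking, 14 were higher and 1 lower (median 2.45), with Dcn at 21662 CPM and Lum at 1952 CPM, 2 proteoglycans of the fibril surface that are also on the fibroblast marker list. Sparc, a collagen-binding matricellular protein, was high in both classes, at 2424 and 1725 CPM. Collagen receptors split evenly, 4 higher and 4 lower of 9 measured. Ddr2, a receptor tyrosine kinase for fibrillar collagen, stood at 197 CPM in fibroblast-like cells, while Cd36, also a capillary marker, stood at 2293 CPM in endothelial-like cells. Among partners of the basement membrane, 8 of 18 were higher in fibroblast-like cells and 5 lower, with the linker Nid1 at 752 CPM in fibroblasts and the proteoglycan Hspg2 at 382 CPM in endothelium. For degradation, 10 of 13 measured genes were higher and 3 lower, with the protease inhibitor Timp2 at 854 CPM in fibroblast-like cells and Timp3 at 786 CPM in endothelial-like cells.

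Fibroblast marker RNA was present in the other cells too. The summed level of Dcn, Gsn and Lum in endothelial-like cells was 7.15%, 0.363% and 0.896% of that in fibroblast-like cells of the Lin28-/cKit- library. Each collagen's fibroblast level was scaled by the share of the library in question and set beside the measured level. In the Lin28-/cKit- library the scaled level came to 108% of the measured endothelial level for Col3a1, 126% for Col1a2, 167% for Col1a1, 101% for Col6a2, 128% for Col6a6 and 97.7% for Col4a5. For the type VI chains Col6a1 and Col6a3 it came to 84.6% and 82.1%. It came to 68.3% for Col15a1, 63.8% for Col14a1 and 55.2% for Col8a1. For Col4a1, Col4a2 and Col4a4 it was 4.88%, 3.50% and 9.79%, and for Col18a1, Col13a1 and Col23a1 it was 4.94%, 0.280% and 1.00%. The endothelial levels of the type I and III chains, Col6a2 and Col6a6 were therefore at or below this scaled level in that library, those of Col6a1 and Col6a3 were somewhat above it, and the levels of Col4a1, Col4a2, Col4a3, Col4a4, Col13a1, Col18a1 and Col23a1 were far above it. Whether the marker RNA was free in the droplets or came from attached cells was not tested.

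Within the fibroblast-like cells of the Lin28-/cKit- library the major chains varied little and a few minor chains varied more. The 7 clusters are called here by their number and a leading gene: 1 (Abcc9, 644 cells), 2 (Ptx3, 619), 3 (Milr1, 571), 7 (Hspa1a, 379), 8 (Postn, 233), 10 (Inmt, 204) and 13 (Tmem100, 117). Col1a1 ranged from 589 CPM in cluster 10 to 863 CPM in cluster 8, and Col3a1 from 1090 CPM in cluster 10 to 1670 CPM in cluster 1. Neither was called in any cluster against the other fibroblast-like cells. The promoter stretch of Col3a1, the member with the most UMIs, is shown with a TATAAA match in capitals, at position -117 from its RefSeq start.
Col3a1, chr1:45311288-45311537, plus strand, GRCm38.p6: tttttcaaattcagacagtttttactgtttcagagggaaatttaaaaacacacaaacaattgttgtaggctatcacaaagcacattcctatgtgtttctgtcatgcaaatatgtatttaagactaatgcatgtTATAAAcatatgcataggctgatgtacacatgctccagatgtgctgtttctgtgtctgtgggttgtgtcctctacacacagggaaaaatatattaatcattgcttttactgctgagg

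The type IV pair divided the fibroblast clusters into a higher and a lower set. Col4a1 measured 841, 818 and 731 CPM in clusters 1, 3 and 7 and 443 to 483 CPM in clusters 2, 8, 10 and 13. Col4a2 followed, at 359, 333 and 284 CPM in the first set and 167 to 199 CPM in the second. Col6a3, the largest chain of type VI collagen, made the same division, at 227 to 232 CPM against 84.8 to 111 CPM, and so did Col5a3, at 146 to 165 CPM against 52.6 to 95.2 CPM. Its partner chains divided less, with Col6a1 at 646 to 696 CPM against 354 to 586 CPM. The Col4a1 to Col4a2 ratio of UMIs in fibroblast-like cells was 2.47 (2.40 to 2.54), against 1.77 (1.68 to 1.87) in endothelial-like cells of the same library, and these intervals do not overlap.

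Col14a1 and Col12a1, related fibril-associated collagens, were distributed the other way. Col14a1 stood at 251 CPM in cluster 13, 237 CPM in cluster 8 and 172 CPM in cluster 2, against 66.3 CPM in cluster 3 and 88.8 CPM in cluster 7. Clusters 2, 13 and 8 carried 6, 7 and 5 of the 8 markers listed for adventitial fibroblasts. Col12a1 was rare, at 12.3 CPM in cluster 8 and 9.43 CPM in cluster 2, against 1.82 CPM in cluster 1.

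Cluster 8, led by Cytl1, Postn, Mfap4 and Cilp, called 7 of 30 measured collagens higher and 5 lower, beside 4.94% and 3.6% of all genes. Col8a1 was the largest of these in UMIs, at 457 CPM (433 to 483), 1.73-fold above the other fibroblast-like cells. Col14a1 was 1.90-fold, Col12a1 2.40-fold, Col4a3 2.07-fold and Col4a5 1.51-fold higher there. Cluster 10, led by Inmt, Igfbp3, Apod and Vegfd, was the lowest in summed collagen, with 9 of 30 called lower and 3 higher beside 8.38% and 4.18% of all genes. Col8a1 was 2.65-fold, Col5a3 2.32-fold, Col6a2 2.11-fold and Col15a1 1.70-fold lower in it. Col6a6, a further type VI chain, stood out upward at 162 CPM (145 to 181), 2.30-fold (2.03 to 2.59) above the rest. That value leaned on where the cluster was drawn: in the 5 alternative clusterings the cluster holding most of these cells had a Col6a6 ratio between 1.17 and 1.73.

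The other 5 fibroblast clusters had fewer calls of size. Cluster 1 called 5 higher and 1 lower (4.47% and 4.64% of all genes), the higher ones being Col4a2, Col4a3, Col4a4, Col5a3 and Col26a1. Cluster 2 called 1 higher and 9 lower (3.55% and 6.27%), among them Col4a1, 1.52-fold lower, and Col6a6, 1.98-fold lower. Cluster 3 called 2 higher and 2 lower (2.91% and 4.28%), cluster 7 called 0 higher and 2 lower (2.02% and 4.96%), and cluster 13 called 4 higher and 2 lower (6.47% and 5.37%). Col6a6 had its lowest level in cluster 13, at 19.2 CPM, 4.14-fold below the other fibroblast-like cells. In the alternative clusterings 51.7% to 75.8% of fibroblast cluster 10 and 95.04% to 100% of endothelial cluster 11 stayed together. Fibroblast clusters 1, 2, 3 and 8 fell to 40.7%, 47.9%, 43.3% and 44.7% at the lowest, and clusters 7 and 13 to 61.1% and 72.0%. At resolution 0.5 a cluster of 1549 cells held most of clusters 2, 3, 7 and 8, and another of 1029 cells held clusters 1 and 13. The higher and lower sets of Col4a1 were thus not kept apart at that setting. Endothelial cluster 0 was at times split, with 31.5% to 100% of its cells together.

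**Figure D2:**
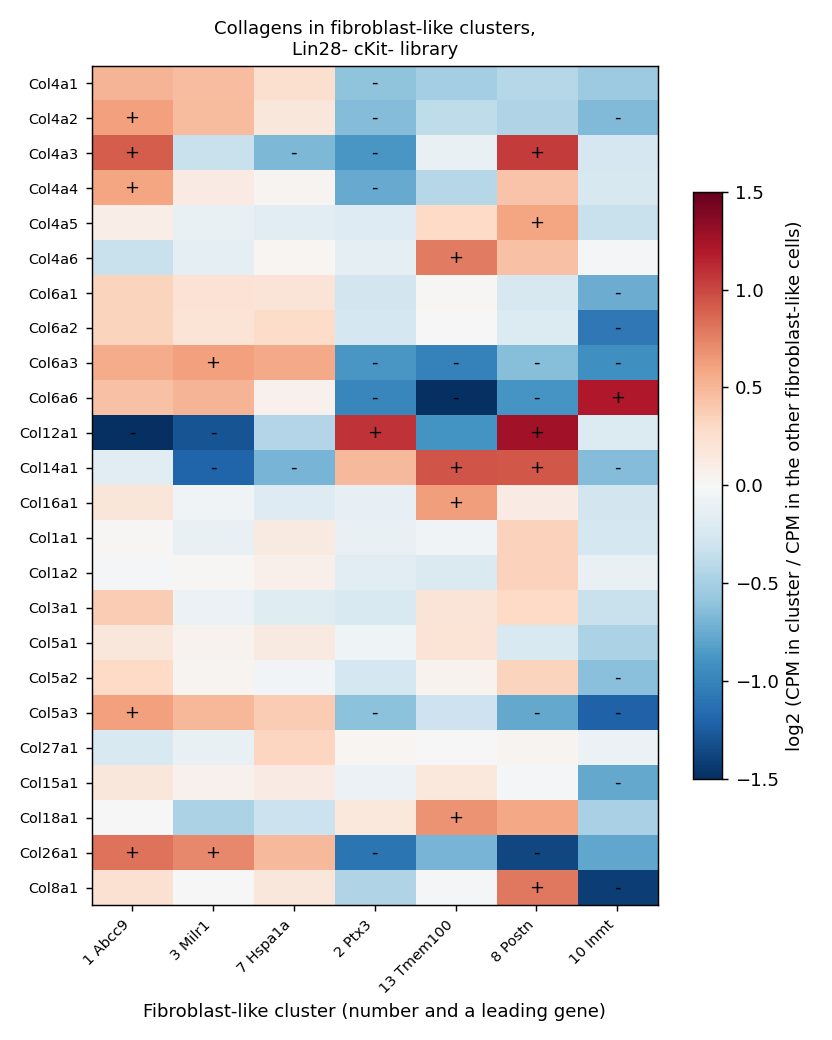
Log2 ratio of CPM in each fibroblast-like cluster over the other fibroblast-like cells of the Lin28-/cKit- library, collagens in rows and clusters in columns, with + and - where the member was called. Col4a1, Col4a2, Col6a3 and Col5a3 are red in clusters 1, 3 and 7 and blue in clusters 2, 8, 10 and 13, and Col6a6 is red in cluster 10 and darkest blue in cluster 13.

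The endothelial-like clusters differed in which collagens were high, and for Col4a1 and Col4a2 the order of the clusters repeated in the 3 libraries. The clusters were 0, led within the class by Car4, Apln and Kit (383, 152 and 244 cells), 4, led by Hey1, Sema3g and Stmn2 (310, 35 and 115), 9, led by Prss23, Serpina1b and Vwf (126, 46 and 38), and 11, led by Npr3, Cytl1 and Plvap (106, 11 and 32). Cluster 11 carried all 6 of the markers listed for endocardium, the inner lining of the heart.

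Col4a1 was highest in cluster 0 in every library and lowest in cluster 11. In cluster 0 it measured 1486 (1426 to 1549), 1425 (1360 to 1493) and 1166 (1111 to 1222) CPM, in the library order given above. Cluster 4 followed at 933, 862 and 721 CPM, then cluster 9 at 609, 497 and 503 CPM. In cluster 11 it stood at 169, 148 and 109 CPM, and in the Lin28-/cKit- library 69.7% of that level equalled the level scaled from Dcn, Gsn and Lum. Neighbouring clusters in this order had intervals that did not overlap in any library, and cluster 0 was 2.45, 2.52 and 2.24-fold above the other endothelial-like cells.

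Col4a2 kept the same order of clusters. It measured 817, 839 and 668 CPM in cluster 0, 618, 484 and 487 CPM in cluster 4, and 288, 287 and 246 CPM in cluster 9. In cluster 11 it measured 55.9 CPM in the first library and 13.2 CPM in the third. The 11 cells of the second library had no Col4a2 UMI, with an upper limit of 45.5 CPM by the exact interval. Both chains had a UMI in 84.6%, 96.7% and 84.8% of cluster 0 cells. The 2 genes are neighbours on chromosome 8, on opposite strands, and their annotated starts overlap by 22 bases, so they leave from 1 shared stretch. It is shown with 4 bases on either side of the overlap and a GGGCGG match in capitals.
Col4a2 over Col4a1, chr8:11312801-11312830, plus strand, GRCm38.p6: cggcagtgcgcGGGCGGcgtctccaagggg

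Col4a4 and Col4a3, chains of the type IV network best known from the kidney glomerulus, were concentrated in cluster 11. Col4a4 measured 269 (236 to 306), 160 (85.4 to 274) and 185 (140 to 240) CPM there, seen in 74 of 106, 7 of 11 and 22 of 32 cells. In the other endothelial clusters it stayed at or below 8.71 CPM in the Lin28-/cKit- library, and it had no UMI in them in the Lin28+ libraries. Cluster 11 was 52.8-fold above the other endothelial-like cells in the first library and at least 102-fold and at least 146-fold in the others, taking 3 UMIs as the floor of the other cells together. Col4a3 measured 29.1, 12.3 and 42.9 CPM in cluster 11, from 25, 1 and 13 UMIs, against at most 2.61 CPM in the other clusters. The Col4a4 to Col4a3 ratio of UMIs was 7.75 in endothelial-like and 6.72 in fibroblast-like cells of the Lin28-/cKit- library, so the pair stood in a similar proportion in both classes. These genes also leave each other on opposite strands, on chromosome 1, with 71 bases between their annotated starts, and none of the 3 motifs searched lies in those bases.
Between Col4a4 and Col4a3, chr1:82586850-82586920, plus strand, GRCm38.p6: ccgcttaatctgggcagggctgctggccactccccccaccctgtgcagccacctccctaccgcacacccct

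Col23a1 was the other collagen of cluster 11. It measured 37.3, 61.7 and 59.4 CPM in that cluster, from 32, 5 and 18 UMIs, and at most 0.806 CPM in clusters 0, 4 and 9. The lymphatic endothelial-like cells (19, 17 and 13 cells), a separate class led by Ccl21a and Mmrn1, held more of it, at 108, 83.1 and 133 CPM. In the Lin28-/cKit- library cluster 11 called 14 of 20 measured collagens higher and 3 lower, beside 13% and 15.4% of all genes. Its summed Dcn, Gsn and Lum level was the highest of the endothelial clusters, at 18.6%, 7.35% and 7.59% of the fibroblast level, against 3.94%, 0.0692% and 0.0508% in cluster 0. For 11 of the 14 higher members, Col1a2 and Col3a1 among them, the level scaled from those genes was 54.3% to 199% of the measured one, and for Col4a3, Col4a4 and Col23a1 it was 7.68%, 5.59% and 0.550%. Whether cluster 11 cells make Dcn themselves was not tested.

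Col13a1 was highest in cluster 9. It measured 53.8 (37.5 to 74.9), 63.3 (42.1 to 91.5) and 86.9 (55.1 to 130) CPM there, and at most 6.60 CPM in any other endothelial cluster. The cluster stood 27.2-fold above the other endothelial-like cells in the Lin28-/cKit- library and 35.0-fold in the Lin28+/cKit+ library. In the Lin28+/cKit- library the other cells had no UMI, which makes the ratio at least 32.5-fold. It was detected in 26 of 126, 15 of 46 and 13 of 38 cluster 9 cells. Thinned to 1000 UMIs per cell the shares were 4.76%, 2.17% and 7.89%, so detection in single cells depends on depth. The stretch before its start carries a TATAAA match, in capitals, at position -237.
Col13a1, chr10:61979109-61979358, minus strand, GRCm38.p6: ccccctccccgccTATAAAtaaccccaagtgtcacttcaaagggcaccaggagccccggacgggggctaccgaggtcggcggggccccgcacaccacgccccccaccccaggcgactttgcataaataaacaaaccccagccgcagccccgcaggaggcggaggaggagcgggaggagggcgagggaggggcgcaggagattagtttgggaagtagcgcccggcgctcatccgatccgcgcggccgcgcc

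The 3 motifs were searched on both strands in the 250 bases before each start in RefSeq's table, where 32 of the 39 members had an entry, with 34 windows. GGGCGG, the GC box, was in 61.8% of the collagen windows and 32.7% of all 32851 windows. CCAAT was in 32.4% and 33.8%, and TATAAA in 14.7% and 12.4%. No motif contains another. Col3a1 had a low share of G and C in its window, 35.2%, against 74.4% for Col4a1, 73.6% for Col4a2 and 68.8% for Col13a1. These matches describe letters only.

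Clusters 4 and 11 shared Col18a1, and cluster 4 had Col8a1. Col18a1, whose end fragment is endostatin, measured 34.8, 27.7 and 63.4 CPM in cluster 4 and 28.0, 12.3 (1 UMI) and 33.0 CPM in cluster 11, against at most 8.48 CPM in clusters 0 and 9. Lymphatic endothelial-like cells (19, 17 and 13 cells) had 36.1, 166 and 104 CPM. The first of these values lay within the interval of cluster 4 in the Lin28-/cKit- library, 24.9 to 47.4 CPM. Col8a1 measured 76.6, 60.0 and 49.5 CPM in cluster 4 and 36.9, 49.7 and 18.9 CPM in cluster 9, against at most 9.78 CPM in cluster 0. In cluster 11 it measured 31.5 CPM in the Lin28-/cKit- library, below its scaled level, and no UMI in the Lin28+ libraries. Col15a1 measured 79.6, 58.8 and 50.5 CPM in cluster 0. In the 2 Lin28+ libraries, where the Dcn, Gsn and Lum level was lowest, this was above the 13.8 to 18.9 CPM of clusters 4 and 9. The intervals overlapped for cluster 9 of the Lin28+/cKit+ library (39.7 to 63.4 against 6.14 to 44.1 CPM).

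**Figure D3:**
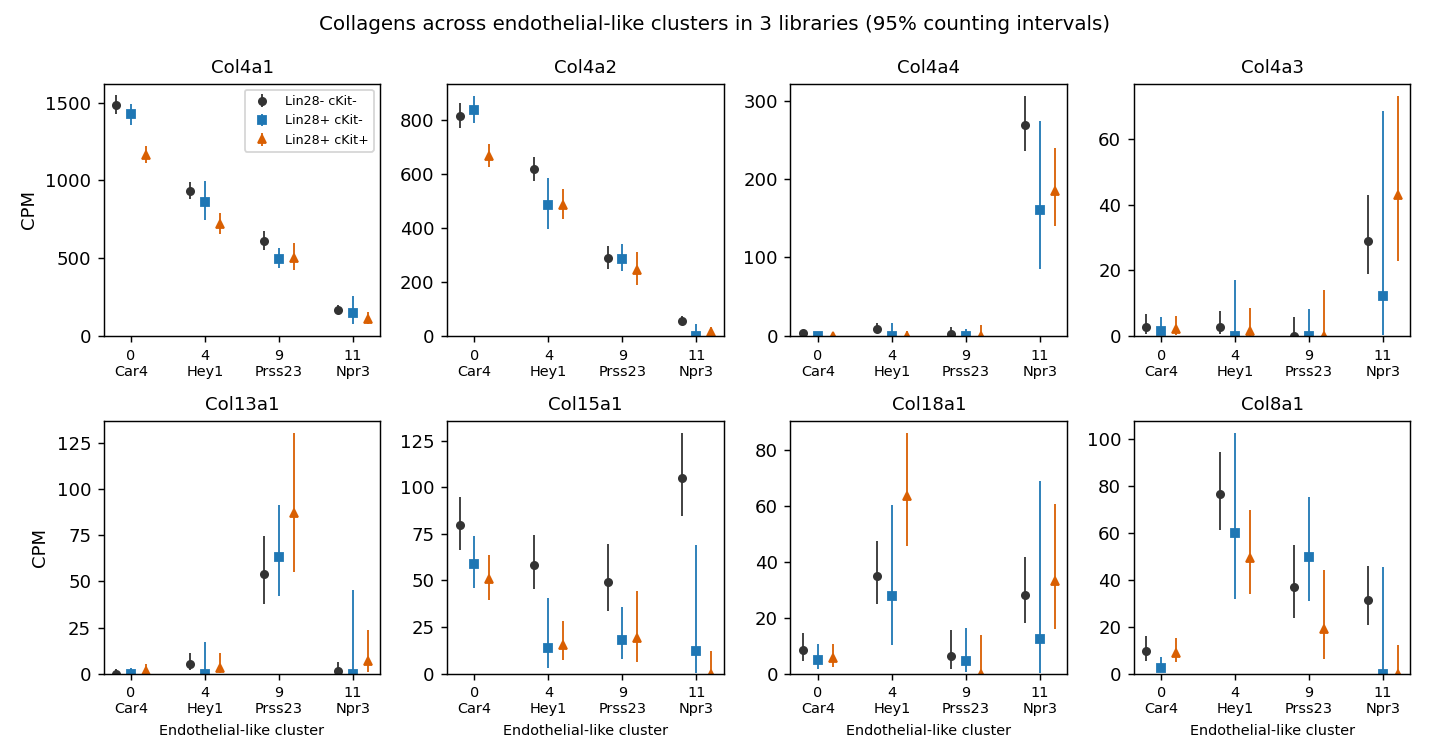
CPM with 95% counting intervals of 8 collagens across the 4 endothelial-like clusters, 1 mark per library. Col4a1 and Col4a2 step down from cluster 0 to cluster 11, Col4a4 and Col4a3 are high in cluster 11, Col13a1 in cluster 9, and Col18a1 and Col8a1 in cluster 4, with the same cluster highest in all 3 libraries for all of these but Col15a1.

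Against the other endothelial-like cells the calls were as follows, with the share of all genes called higher and lower beside them. Cluster 0 called 2 of 20, 3 of 5 and 3 of 9 measured collagens higher in the 3 libraries (6.38%, 4.9% and 5.19% of all genes) and 15, 2 and 6 lower (10.5%, 7.56% and 7.85%). Cluster 4 called 2, 1 and 2 higher (5.88%, 4.53% and 5.59%) and 7, 1 and 5 lower (8.96%, 4.12% and 6.55%). Cluster 9 called 1, 2 and 1 higher (5.21%, 7.27% and 5.17%) and 11, 3 and 4 lower (6.14%, 5.48% and 3.96%). In the Lin28+ libraries cluster 11 called 0 of 5 and 3 of 9 higher (6.22% and 9.9%) and 2 and 4 lower (5.4% and 12.4%). The members called higher in cluster 0 of the Lin28-/cKit- library were Col4a1 and Col4a2, and in cluster 9 Col13a1.

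Between libraries the endothelial-like cells differed in the chains typical of fibroblasts and in Col18a1, Col23a1, Col4a3 and Col4a4. Over the class as a whole, Col4a1 and Col4a2 stayed under the fold of a call. In the Lin28+/cKit- library against the Lin28-/cKit- one, 0 of 20 measured collagens were higher, 17 lower and 3 neither, beside 3.99% and 6.98% of all genes. The median log2 ratio was -2.16 over the collagens and -0.04 over all genes. Col3a1 measured 3.03 against 89.5 CPM, Col1a1 1.01 against 29.8 CPM and Col6a1 2.52 against 48.9 CPM. All 9 measured fibroblast markers were lower as well, and the summed fibroblast markers stood at 207 against 4012 CPM. Col4a1 measured 1104 against 929 CPM, a ratio of 1.19 (1.13 to 1.25), Col4a2 643 against 524 CPM, 1.23 (1.14 to 1.31), and Col13a1 14.1 against 10.0 CPM, so none of these reached the fold.

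When the level scaled from Dcn, Gsn and Lum was subtracted in both libraries, 13 members were left to measure, with 2 higher and 5 lower. No share over all genes is given for counts after subtraction, and the shares above do not apply to them. Col15a1 was lower before subtraction and 1.73-fold higher (1.27 to 2.34) after it, at 40.4 against 23.4 CPM. Col6a3 turned as well, from 2.06-fold lower (1.14 to 3.99) to 2.50-fold higher (1.03 to 6.16). It had 14 and 61 UMIs before subtraction and 13 and 11 left after it. Intervals and calls after subtraction treat the UMIs left as plain counts and leave out the error of the subtracted level. Such intervals are too narrow, so the changes of direction of Col15a1 and Col6a3 are not established. Col18a1, Col23a1, Col4a3, Col4a4 and Col6a1 stayed lower, and of these Col4a3, Col4a4 and Col23a1 had most of their UMIs in cluster 11. That cluster made up 106 of 925 endothelial-like cells in the Lin28-/cKit- library and 11 of 244 in the Lin28+/cKit- library. It also held 8354 of 15703 and 312 of 377 of the Dcn, Gsn and Lum UMIs of these cells, from which the subtracted level was scaled. Within cluster 0 alone, 0 of 9 measured members were higher and 5 lower (3.45% and 3.97% of all genes), and the lower ones were type I, III and VI chains (Col1a1, Col1a2, Col3a1, Col6a1 and Col6a2). Col4a1 and Col4a2 had ratios of 0.959 and 1.03 in cluster 0. Col15a1, without subtraction, had a ratio of 0.740 (0.546 to 0.996) there and was not called. Within cluster 4, 0 of 10 were higher and 6 lower (3.14% and 3.97%), within cluster 9, 0 of 6 and 2 (4.04% and 3.33%), and within cluster 11, 0 of 17 and 6 (3.96% and 2.38%). Col4a2 was among the members called lower within cluster 11, with 0 UMIs in 11 cells against 48 UMIs in 106 cells. Col4a4 was not called within cluster 11, nor Col18a1 within cluster 4, nor Col13a1 within cluster 9.

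The endothelial-like cells of the Lin28+/cKit+ library, set against those of the Lin28+/cKit- one, had 5 of 12 measured collagens higher and 0 lower, beside 3.4% and 3.45% of all genes. This comparison shares the Lin28+/cKit- library with the last one, so the 2 are not independent. The higher members were Col18a1 at 22.02 against 7.57 CPM, Col4a4 at 20.9 against 6.56 CPM, Col4a3 at 6.34 against 1.51 CPM, Col3a1 at 10.4 against 3.03 CPM and Col1a2 at 7.84 against 2.02 CPM. Cluster 11 was 32 of 429 cells here, and Dcn measured 390 against 148 CPM. Col4a1 went the other way without reaching the fold, at 873 against 1104 CPM. After subtraction Col18a1, Col4a3 and Col4a4 were higher and Col15a1 lower (0.665, 0.477 to 0.926), of 10 measured, again with no share over all genes. These calls again leave out the error of the subtracted level. That level came mostly from cluster 11, which held 1205 of the 1258 Dcn, Gsn and Lum UMIs of the class in the Lin28+/cKit+ library. In the Lin28+/cKit- library it held 312 of 377. In cluster 0 alone, without subtraction, the Col15a1 ratio was 0.858 (0.613 to 1.20) and was not called. Within single clusters no member was called in either direction: 0 of 3 in cluster 0 (2.28% higher and 3.11% lower over all genes), 0 of 4 in cluster 4 (2.88% and 3%), 0 of 4 in cluster 9 (2.87% and 3.72%) and 0 of 5 in cluster 11 (3.49% and 4.52%).

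Macrophage-like cells, nearly absent from the Lin28-/cKit- library, held few collagen UMIs, and Col14a1 was the highest of them. Summed collagens measured 126 and 133 CPM in the Lin28+/cKit- and Lin28+/cKit+ libraries. Col14a1 alone measured 52.9 (46.4 to 59.9) and 64.3 (58.6 to 70.5) CPM, with a UMI in 122 of 334 and 241 of 659 cells. In endothelial-like cells of the same libraries it measured 3.03 and 2.99 CPM. The Dcn, Gsn and Lum level in these macrophage-like cells was 0.194% and 0.185% of the fibroblast level, which scales to 0.264 and 0.251 CPM of Col14a1. In the 123 and 290 cells with no UMI of those 3 genes, Col14a1 measured 36.8 and 71.0 CPM.

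Col14a1 differed between macrophage clusters in both libraries. Cluster 6, led by Il1b, Mmp13 and H2-Aa, held 99.7 (82.0 to 120) and 91.4 (81.2 to 102) CPM, and cluster 5, led by Retnla, Lyve1 and Folr2, held 35.9 and 41.3 CPM. Macrophage-like cluster 14, of low depth (60 and 50 cells, median 790 UMIs), had no Col14a1 UMI in either library. The share of macrophage-like cells with a Col14a1 UMI in the Lin28+/cKit+ library was 36.6%, and 5.74% after thinning every cell to 1000 UMIs. In endothelial-like cells these shares were 1.63% and 0.474%, with median depths of 9639 and 5590 UMIs per cell in the 2 classes. Col27a1 followed at a lower level, 8.02 and 12.2 CPM, the only one of 6 measured members called between these libraries (1.53-fold higher, 1.03 to 2.30), beside 1.6% of all genes called higher and 4.71% lower. Type I and III chains were near 0 in the same cells, with 3 and 0 UMIs of Col1a1 and 4 and 5 UMIs of Col3a1. Col6a3 had 21 and 32 UMIs while its partner chain Col6a1 had 0 in both. Col4a1 measured 29.2 and 24.6 CPM, with up to 20 UMIs in 1 cell.

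**Figure D4:**
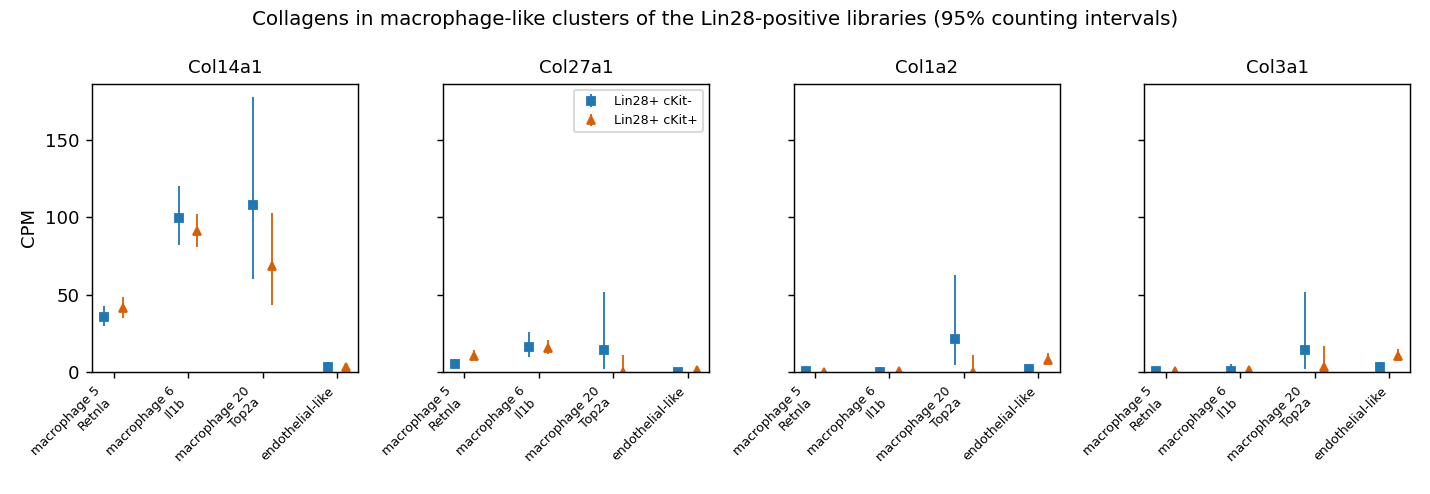
CPM with 95% counting intervals of Col14a1, Col27a1, Col1a2 and Col3a1 in macrophage-like clusters 5, 6 and 20 and in endothelial-like cells of the 2 Lin28+ libraries. Col14a1 is highest in clusters 6 and 20 (8 and 16 cells in the latter, with wide intervals), lower in cluster 5 and near 3 CPM in endothelial-like cells, while Col1a2 and Col3a1 are near 0 in clusters 5 and 6.

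Over whole libraries, most collagens followed the share of fibroblast-like cells. Whole-library sums cannot tell fewer cells of a type from less RNA per cell. Collagens were 0.644%, 0.115% and 0.0605% of UMIs. In the Lin28+/cKit- library against the Lin28-/cKit- one, 1 of 32 measured collagens was higher and 27 lower, beside 22.1% and 25.3% of all genes. In the Lin28+/cKit+ against the Lin28+/cKit- library, 0 of 23 were higher and 15 lower, beside 1.77% and 8.02%. These comparisons also share a library.

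The member that was higher was Col13a1, at 3.78 against 1.70 CPM, with 72.4%, 100% and 96.7% of its UMIs in endothelial-like cells. Col1a1 measured 593, 62.2 and 8.36 CPM over the whole libraries, with 97.1%, 93.3% and 96.6% of its UMIs in fibroblast-like cells. Col4a1 measured 663, 371 and 264 CPM, and its source shifted from fibroblast-like cells (78.9%, 10.6% and 3.10% of its UMIs) to endothelial-like cells (17.3%, 79.7% and 85.3%). Col14a1 measured 118, 46.7 and 46.6 CPM and moved from fibroblast-like cells (95.4%, 23.4% and 1.24%) to macrophage-like cells (0.249%, 70.5% and 95.5%). Its level was thus nearly equal in the Lin28+ libraries, where that of Col1a1 was not.

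The few fibroblast-like cells of the Lin28+ libraries (34 and 12) held collagens at levels like those of the Lin28-/cKit- library. Summed collagens measured 8665 and 8284 CPM against 7288 CPM. Col3a1 measured 1613 and 1338 CPM against 1349 CPM, Col4a1 689 and 812 CPM against 634 CPM, and Col15a1 737 and 831 CPM against 709 CPM. These classes were under 50 cells, so no calls were made.

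The genes whose levels ran most like 4 of the members were found over 30 profiles, each a cluster in a library with at least 20 cells, among 11735 genes. The likeness is Pearson's r of log2(CPM + 1), a description over profiles that share libraries and depth. Col1a1 was most like Gpm6b (0.990), Col5a1 (0.989), Loxl1 (0.987), Pcolce2 (0.987) and Col3a1 (0.984), of which Loxl1 is a cross-linking oxidase. Col4a1 was most like Sparc (0.961), Sparcl1 (0.957), Jam3 (0.954), Ebf3 (0.940) and Meox1 (0.935). Col13a1 was most like Serpina1b (0.842), Wipf3 (0.767), Amigo2 (0.763), Slc27a3 (0.752) and Lrg1 (0.746). Among the genes most like Col15a1 were Pcolce (0.957), Pcsk6 (0.943), Fxyd1 (0.936) and Pdgfra (0.932), the last a fibroblast marker.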

How the data were processed

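Each deposited value is a natural log: the authors divided a gene's UMIs by the cell's total, multiplied by 10000, added 1 and took ln. Cell Ranger, Seurat 4.0.2 and build mm10 come from the submitters' processing notes, and the filters on cells are unknown here. Undoing the log gave whole UMIs for 100% of values within 0.01, and every analysis used those UMIs in place of the deposited counts the design assumed. Cells of all libraries were clustered together without integration (scanpy 1.11.5, leidenalg 0.10.2, 2000 variable genes, 30 components, 15 neighbours, resolution 1). A cluster was named when at least 3 markers and 50% of a list were raised in it. The name was withheld when a second list also reached 50%, the endothelial and lymphatic endothelial lists excepted. It was also withheld when leading genes were of another type, or when depth was low with no marker among the leading genes. That naming rule was revised once after values were seen. The doublet caller marked 7, 10 and 9 cells. UMIs were summed per class, cluster and library, with exact Poisson, conditional binomial and Clopper-Pearson 95% intervals (scipy 1.17.1). Members took in every matching symbol, and of each other list the 3 highest genes per class were eligible for naming. The members, lists and the cluster values followed through the alternatives were chosen with earlier results of these data known, and the restriction to classes of at least 50 cells when placing highest levels was set after values were seen. A further gene with a pattern like a member is not reported here. The script for calls was tested on simulated data. Promoter sequences are RefSeq's, GRCm38.p6, and gene positions are GENCODE's.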

Additional observations from a re-analysis of the deposited data

How the results depend on the processing

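Across the alternatives 70 values stayed within their counting interval or within 1.5 times the count, 25 moved, and no ratio or count changed direction. Among single members, the ratios of Col15a1 and Col6a3 did in endothelial-like cells, Lin28+/cKit- against Lin28-/cKit-. This was once the level scaled from Dcn, Gsn and Lum was subtracted, with intervals that leave out the error of that level. The ratio of summed collagens, fibroblast-like over endothelial-like, was 3.48 at resolution 2, 2.97 with 1000 variable genes, 3.81 without the top 5% of doublet scores and 3.51 as a mean over cells. Col4a1, endothelial-like over fibroblast-like, was 1.56 as a mean over cells, which takes it past 1.5. With collagens among the clustering genes the Col8a1 ratio of the Postn cluster was 2.47. For Col6a6 no alternative cluster had over 50% of its cells in the Inmt cluster, so none could stand for it. In the cluster holding most Inmt cells, chosen after seeing the data, the ratio was 1.45 with collagens in, 1.43 at resolution 0.5, 1.73 at resolution 2, 1.17 with 1000 variable genes and 1.48 without high doublet scores. Col4a1 of the Car4 cluster was 2.48-fold at resolution 2 in the Lin28+/cKit+ library. In endothelial-like cells, Lin28+/cKit- against Lin28-/cKit-, 8 members were lower with a minimum of 100 UMIs. After subtracting the scaled level 5 were lower and 2 higher, and in the largest cluster alone 5 were lower. Lin28+/cKit+ against Lin28+/cKit-, 0 were higher at 100 UMIs, 3 after subtraction and 0 in the largest cluster, and 1 was lower with a mean over cells at pseudocounts of 0.1 and 1 CPM and 1 after subtraction. Over whole libraries 0 members were higher at 100 UMIs, since Col13a1 had fewer. For counts at 100 UMIs or as a mean over cells, no number measured and no share over all genes is given. Those counts are therefore not set against a background. Thinned to 1000 UMIs, the Col4a1 share of endothelial-like cells in the Lin28+/cKit- library was 63.3% instead of 95.1%, and the Col14a1 share of macrophage-like cells 5.74% instead of 36.6%. No paired analysis was possible because each group has 1 library. Fewer than 20 UMIs kept 8 members out of the class comparison, and the values of cluster 11 in the Lin28+/cKit- library rest on 11 cells.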

Other observations

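Small clusters outside the main classes held collagens as well. The 54 cells led by Rgs5, Higd1b and Vtn, genes of mural cells (37, 11 and 6 cells in the library order of the report), had Col4a1 at 566, 577 and 827 CPM and Col4a2 at 340, 323 and 547 CPM. This cluster is left without a name because endothelial markers were raised in it beside the pericyte ones. In the Lin28-/cKit- library it also held Col3a1 at 266 CPM, against 1349 CPM in fibroblast-like cells.

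The 11 Schwann cell-like cells of the Lin28-/cKit- library, glia of the cardiac nerves, held Col3a1 at 2388 CPM (1968 to 2871), above the 1349 CPM of fibroblast-like cells. Col16a1 measured 528 CPM (342 to 780) against 40.8 CPM, Col18a1 338 CPM (193 to 549) against 13.4 CPM, and Col5a3 401 CPM (242 to 627) against 117 CPM. Col6a1 was lower there, at 169 CPM (73.0 to 333) against 578 CPM. These are values of 1 library and few cells, with counting error only. A further 10 cells led by the mesothelial genes Upk3b and Msln held Col3a1 at 1473 and 3678 CPM in the Lin28-/cKit- and Lin28+/cKit- libraries, and 13 UMIs of the rare chain Col6a5 in 4 cells.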
